A study of Mus musculus with 2 samples.

Results

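The miR-7 family was described in left cerebral cortex of aged mice, across 3 miRNA genes of the 2202 in the deposited tables: Mir7b, Mir7-2 and Mir7-1. They were chosen by name, as every gene symbol made of Mir7, at most a letter a or b and an optional copy number, and the rule itself uses no measured value. All 3 were found, and all 3 passed the threshold for expression of 2 CPM (sense counts per 1000000 of the library's sense counts of miRNA genes) in both libraries, against 409 of 2202 genes (18.6%) over the whole table. MicroRNA sequencing had been done on 2 libraries from mice of the hybrid strain B6CASTF1/J, bred from C57BL/6J and CAST/EiJ parents, aged 18 to 20 months and untreated as far as the labels say, from total RNA selected for fragments under 30 nucleotides. Both libraries belong to 1 group, so no contrast of treatment, age or tissue exists. The labels disagree on sex, naming female in the sample fields and male in the free text, and both libraries carry the same donor identifier under separate biosamples. The labels number them replicate 1 and replicate 2, each as technical replicate 1. Whether they come from separate animals is therefore unclear, and their spread may be technical. An exact permutation test over 2 libraries cannot give a two-sided p below 0.5, and none is given.

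MicroRNAs are cut from hairpin precursors into a 5p arm and a 3p arm, and bases 2 to 8 of the mature arm, the seed, select the messenger RNAs that are repressed. miR-7 is an ancient miRNA that is abundant in neurons with a secretory role, in the pituitary and in pancreatic islets. In the mammalian brain it belongs to a circuit of non-coding RNAs: the circular RNA Cdr1as carries many miR-7 sites, the long non-coding RNA Cyrano directs the destruction of miR-7, and miR-671 cuts Cdr1as.

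The mature arms are shown because the family differs at few bases, which bears on what gene counts can tell apart. They are RefSeq sequences of build GRCm38.p6, all 3 genes matched by symbol, and the seed is in capitals.
miR-7a-5p (Mir7-1 and Mir7-2): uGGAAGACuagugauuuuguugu
miR-7b-5p (Mir7b): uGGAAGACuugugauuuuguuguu
miR-7a-1-3p (Mir7-1): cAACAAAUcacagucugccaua
miR-7a-2-3p (Mir7-2): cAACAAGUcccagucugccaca
miR-7b-3p (Mir7b): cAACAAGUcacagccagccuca
All 3 genes shared the 5p seed, and no other mature arm in the RefSeq table held it. Mir7-1 and Mir7-2 gave the same 5p arm. Counted from 1 at the 5′ end, miR-7b-5p differed from it by a single substitution, A10U, outside the seed, and was 1 base longer. The 3p arms differed more. From miR-7a-1-3p to miR-7a-2-3p the substitutions were A7G, A10C and U21C, and the first of these lies in the seed, so that miR-7a-1-3p had a 3p seed of its own while the other two shared theirs. From miR-7a-2-3p to miR-7b-3p they were C10A, U14C, U16A and A20U.

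The hairpins are given with both arms in capitals, since reads that run past a mature arm can be told apart where the flanks differ.
Mir7b: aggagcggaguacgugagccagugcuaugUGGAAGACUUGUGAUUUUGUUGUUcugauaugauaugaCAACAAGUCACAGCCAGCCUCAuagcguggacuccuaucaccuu
Mir7-2: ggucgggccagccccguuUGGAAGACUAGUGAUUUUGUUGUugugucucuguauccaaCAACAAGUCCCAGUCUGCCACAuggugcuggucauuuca
Mir7-1: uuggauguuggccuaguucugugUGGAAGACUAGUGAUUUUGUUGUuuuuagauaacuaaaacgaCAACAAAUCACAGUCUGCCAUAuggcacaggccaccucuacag
The longest stretch common to the Mir7-2 and Mir7-1 hairpins was 24 nucleotides. It began at the first base of miR-7a-5p and ended 1 base past its last. A read of the mature 5p arm from either gene is therefore the same sequence. Mir7b shared at most 14 nucleotides with either relative. Against all other miRNA genes, none of the 3 hairpins shared more than 13 nucleotides.

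Every 22-nucleotide window of each hairpin was looked for in the sequences of the other 2201 miRNA genes of GENCODE M21. For Mir7-2, 3 of 76 windows occurred exactly elsewhere, all in Mir7-1, and for Mir7-1 3 of 87 did, all in Mir7-2. None of the 90 windows of Mir7b did. With up to 1 mismatch the numbers were 8 for Mir7-2, 8 for Mir7-1 and 5 for Mir7b, all within the family and around the start of the 5p arm. No window that began in a 3p arm was shared. The deposited tables list reads with several places in the genome apart from the gene counts, 6203588 in replicate 1 and 5928954 in replicate 2, and do not split them by gene or by arm. The counts of Mir7-1 and Mir7-2 are thus uncertain and are no measure of miR-7a-5p, and how many of the reads with several places were miR-7 was not tested.

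**Figure D1:**
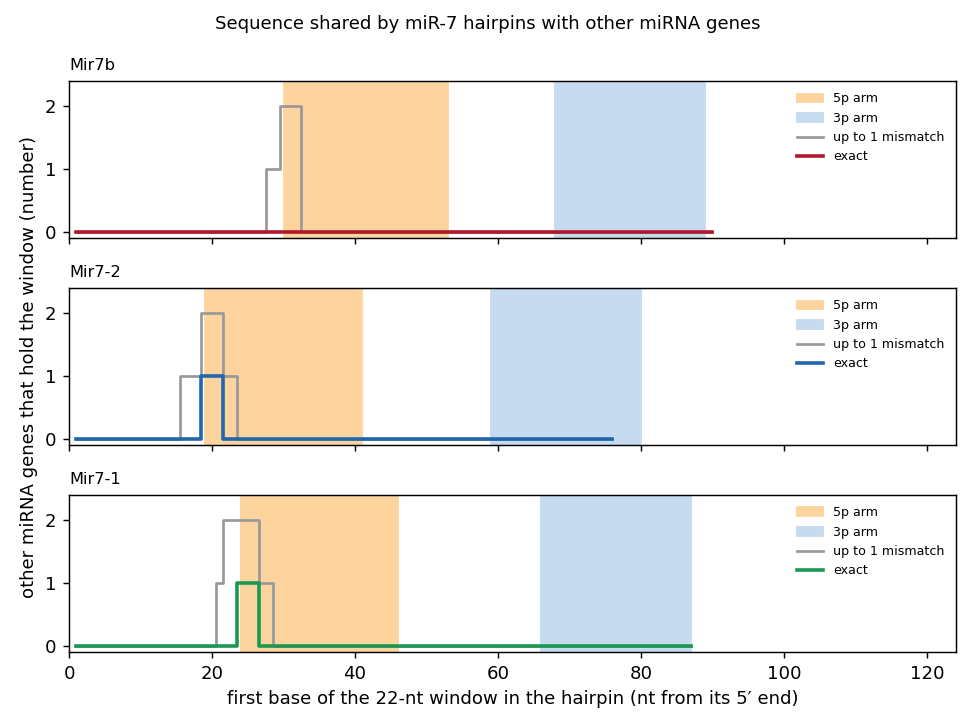
Number of other miRNA genes (vertical axis) that hold each 22-nucleotide window of the Mir7b, Mir7-2 and Mir7-1 hairpins, by the window's first base in nucleotides from the hairpin's 5′ end (horizontal axis), exactly (coloured line) or with up to 1 mismatch (grey line). Shaded bands mark the 5p and 3p arms. Exact sharing is seen at the 5p arm of Mir7-2 and Mir7-1 (3 windows each) and at no window of Mir7b.

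Mir7b (ENSMUSG00000065491.1) lies on chromosome 17 at 56242988 to 56243098 (mm10), plus strand, in no annotated gene. The non-coding gene AC026385.1 ends 183 bp upstream on the same strand, and the nearest protein-coding gene, Fem1a, starts 13712 bp away. Mir7-2 (ENSMUSG00000065609.1) lies on chromosome 7 at 78888277 to 78888373, plus strand, also between genes, with Aen, a nuclease gene induced by p53, 7481 bp downstream. Mir7-1 (ENSMUSG00000065434.1) lies on chromosome 13 at 58392779 to 58392886, minus strand, inside Hnrnpk, which encodes an abundant RNA-binding protein. Of the 34 Hnrnpk transcripts in the annotation, 12 span Mir7-1 and all 12 hold it in an intron, on the same strand. None of the 3 genes lay near another miRNA gene: the closest was Gm44397, 70863 bp from Mir7b.

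The libraries held 5166667 sense counts in replicate 1 and 4459993 in replicate 2, and a count of 0 allows up to 0.581 and 0.673 CPM. Intervals below are exact 95% intervals for counting error alone and take each read as independent. The sources used here record no molecular identifiers, so the intervals are too narrow where several reads are copies of 1 molecule.

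Mir7b was the main countable gene of the family. It had 5609 sense counts in replicate 1, a level of 1086 CPM (Poisson interval 1057 to 1114), and 8773 in replicate 2, a level of 1967 CPM (1926 to 2009). Its mean level was 1526 ± 623.3 CPM (SD, n = 2), 17.2 times the median of the 409 expressed genes (88.9 CPM). Its intervals in the libraries did not overlap, with replicate 2 the higher.

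The loci of miR-7a were far lower in the gene counts. Mir7-2 had 314 counts in replicate 1, or 60.8 CPM (54.2 to 67.9), and 205 in replicate 2, or 46.0 CPM (39.9 to 52.7). Mir7-1, the Hnrnpk intronic gene, had 184 counts or 35.6 CPM (30.7 to 41.1), and 243 counts or 54.5 CPM (47.8 to 61.8). Mir7-2 was the higher of these in replicate 1 and Mir7-1 in replicate 2. Their means were 53.4 ± 10.5 CPM for Mir7-2 and 45.0 ± 13.3 CPM for Mir7-1 (SD, n = 2), a gap of 8.32 CPM that is smaller than either SD.

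In the order of levels Mir7b stood above both other genes in both libraries, without overlap of ranges, while the ranges of Mir7-2 and Mir7-1 overlapped. The hairpins are 97 to 111 nucleotides long and the fragments selected were under 30 nucleotides, so no correction for length was made.

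**Figure D2:**
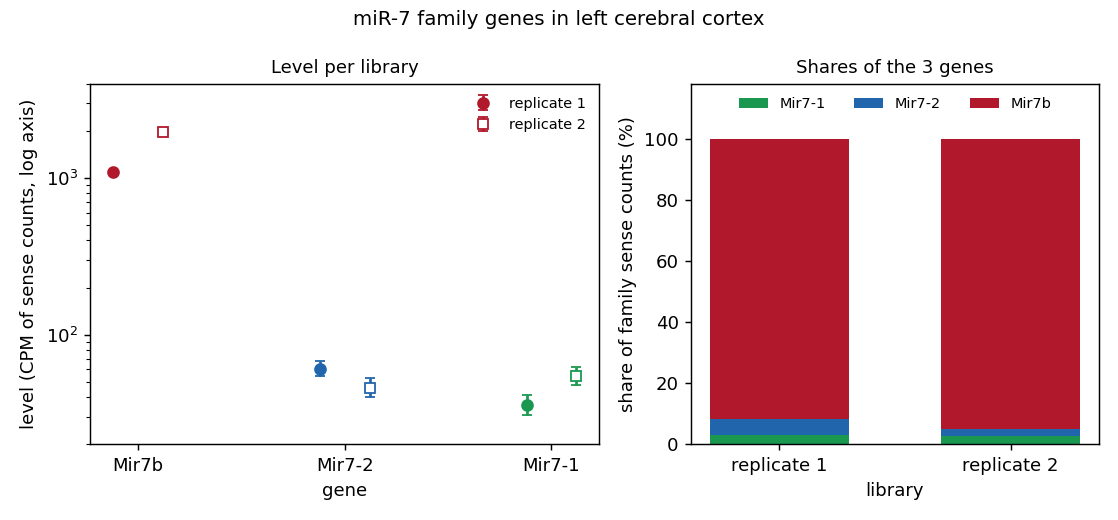
Left, level of each gene (CPM of sense counts, log axis) in replicate 1 (filled circles) and replicate 2 (open squares), with exact 95% Poisson intervals, which are smaller than the symbols for Mir7b; right, share of the family's sense counts held by each gene in each library. Mir7b lies at 1086 and 1967 CPM, and Mir7-2 and Mir7-1 lie between 35.6 and 60.8 CPM and change places.

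Mir7b held 91.8% of the family's sense counts in replicate 1 (Clopper-Pearson interval 91.1% to 92.5%) and 95.1% in replicate 2 (94.7% to 95.6%). These are shares of gene counts, which may lack reads of miR-7a-5p. The family as a whole had 6107 counts in replicate 1 and 9221 in replicate 2, which is 0.118% and 0.207% of all sense counts, or 1625 ± 626.1 CPM. The sum of Mir7-1 and Mir7-2 was nearly level between the libraries, with 96.4 CPM against 100.4 CPM (98.4 ± 2.87 CPM), since Mir7-2 was lower and Mir7-1 higher in replicate 2.

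Ratios of genes within a library do not depend on how the libraries are scaled. They compare gene counts and are no measure of miR-7b against miR-7a. Reads of miR-7a-5p fit both Mir7-1 and Mir7-2 and may lie outside these counts, while Mir7b shares no exact 22-nucleotide window with another miRNA gene. How far this changes the ratios was not tested. Mir7b had 11.3 counts for each count of Mir7-1 plus Mir7-2 in replicate 1 (interval 10.3 to 12.4) and 19.6 in replicate 2 (17.8 to 21.6). Against Mir7-1 alone the ratio was 30.5 (26.3 to 35.5) and 36.1 (31.8 to 41.2), with intervals that overlap. Against Mir7-2 alone it was 17.9 (15.9 to 20.1) and 42.8 (37.3 to 49.4), with intervals that do not. Mir7-2 held 63.1% (58.6% to 67.3%) of the counts of the miR-7a loci in replicate 1 and 45.8% (41.1% to 50.5%) in replicate 2. The shift in composition within the family was thus larger than the counting error of independent reads for Mir7-2 against both relatives. With 1 library on each side the shift has no replicate check.

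Among all 2202 genes Mir7b ranked 73 by mean level, 92 in replicate 1 and 63 in replicate 2, and 82.2% of expressed genes lay below it. Mir7-2 ranked 226 (225 and 224) and Mir7-1 ranked 234 (252 and 214), both below the median expressed gene. Of the genes with an arm in the RefSeq table, 94 had a mature arm identical to that of another gene, and 45 of these were expressed, with a median of 85.7 CPM. Mir7-2 stood at place 29 and Mir7-1 at place 30 among these 45. Of the 924 genes with no such arm, 322 were expressed, with a median of 109 CPM, and Mir7b stood at place 57.

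The genes nearest to each member in level were found by distance in log2(CPM + 1) over the 2 libraries. Nearest to Mir7b was Mir21a, a miRNA induced in reactive glia, with 850.3 and 2044 CPM (distance 0.36), followed by Mir181d and Mirlet7c-2. Nearest to Mir7-2 were Mir26a-2 (56.9 and 50.9 CPM, distance 0.17), Mir412 and Mir6540. Nearest to Mir7-1 was Mir491, with 37.5 and 54.9 CPM (distance 0.08), followed by Mir374b and Mir135b. A likeness over 2 libraries describes level and says nothing more.

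**Figure D3:**
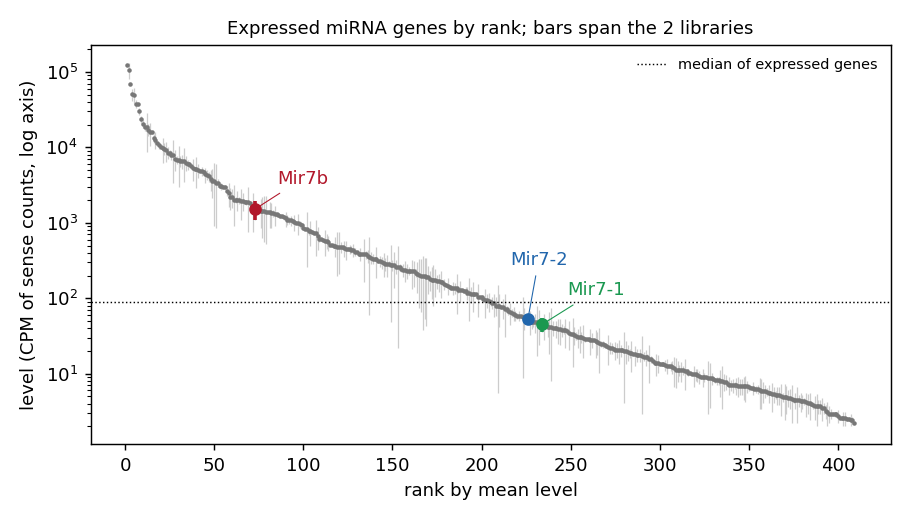
Level (CPM of sense counts, log axis) of the 409 expressed miRNA genes by rank of mean level; points are means, bars span the 2 libraries, and the dotted line is the median of expressed genes (88.9 CPM). Mir7b lies at rank 73, above the line, and Mir7-2 and Mir7-1 lie at ranks 226 and 234, below it.

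Between the libraries, 2 of the 3 genes were higher in replicate 2, against 49.4% of expressed genes. The log2 ratio of replicate 2 to replicate 1, on edgeR TMM-scaled totals, was 1.02 for Mir7b (exact binomial interval 0.97 to 1.07), 0.77 for Mir7-1 (0.49 to 1.06) and -0.24 for Mir7-2 (-0.50 to 0.02). On this scaling the Mir7-2 interval includes 0. Mir7b was over 2-fold apart, as were 98 of the 409 expressed genes (24%), 35 of them (8.56%) towards replicate 2 like Mir7b, so a difference of this size was common in these libraries. The same or a larger absolute log2 ratio was seen in 95 expressed genes (23.2%) for Mir7b, in 143 (35.0%) for Mir7-1 and in 321 (78.5%) for Mir7-2. The median absolute log2 ratio was 0.77 over the 3 members and 0.55 over all expressed genes.

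The size of these ratios moves with the scaling, since TMM shifts every log2 ratio by 0.16 relative to raw totals. On raw totals Mir7b had a log2 ratio of 0.86 and was less than 2-fold apart, and with all genes setting the TMM scaling it had 0.99. The ratio of Mir7-2 was -0.40 on raw totals, where its CPM intervals in the libraries did not overlap, and 0.00 with upper-quartile scaling. Whether Mir7-2 differed between the libraries thus depends on the scaling. Mir7b and Mir7-1 were higher in replicate 2 under every scaling tried. These ratios compare 2 libraries and not 2 conditions.

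**Figure D4:**
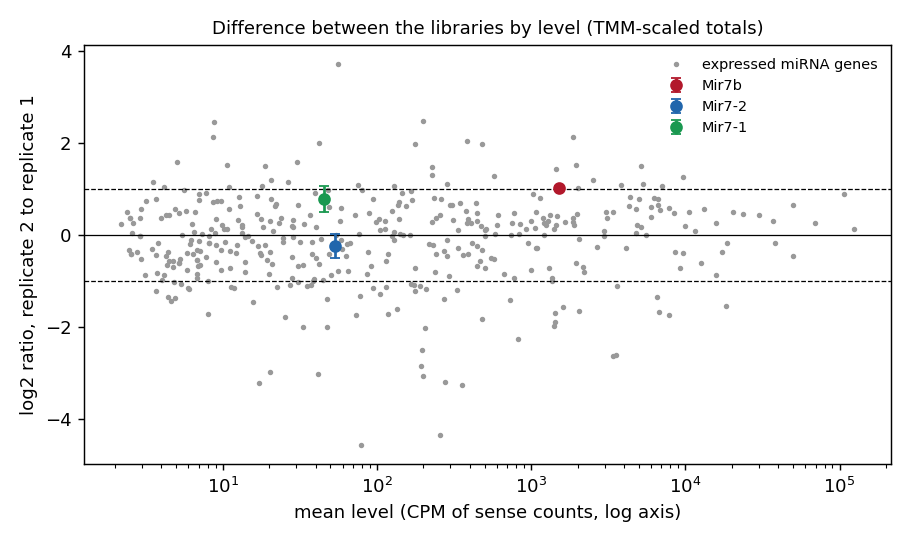
Log2 ratio of replicate 2 to replicate 1 on TMM-scaled totals (vertical axis) against mean level (CPM of sense counts, log axis) for the 409 expressed miRNA genes; coloured points are the miR-7 genes with exact binomial 95% counting intervals, and dashed lines mark a 2-fold difference. Mir7b lies at 1.02 and Mir7-1 at 0.77, above 0, while the interval of Mir7-2 (-0.50 to 0.02) spans 0.

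Counts on the opposite strand were 0 in both libraries for all 3 genes, and the count without strand equalled the sense count in each. The symbols Mir7j and Mir7k, which the naming rule leaves out, carry other seeds and were looked at for that reason after their values were seen. Mir7j had 139 and 135 sense counts and Mir7k had 3 and 3.

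The other measured miRNA of the circuit, Mir671, was expressed at a level close to that of Mir7b. It had 9597 counts in replicate 1 (1857 CPM) and 8571 in replicate 2 (1922 CPM), a mean of 1890 ± 45.4 CPM, with rank 67 by mean level. The ranges overlap, as Mir7b was lower than Mir671 in replicate 1 and higher in replicate 2.

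The 2 genes of the endocrine list, Mir375 and Mir184, were both expressed. Mir375, which like miR-7 is abundant in pancreatic islets and pituitary, stood at 310.5 and 256.5 CPM, with a log2 ratio of replicate 2 to replicate 1 of -0.11. Mir184 stood at 132.2 and 124.4 CPM, with a log2 ratio of 0.07, and 1 of these 2 genes was higher in replicate 2 on TMM-scaled totals. Whether other cell types have a part in the levels of the miR-7 genes was not tested.

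Of the 6 genes of the three-copy brain miRNAs miR-124 and miR-9, whose mature arms also recur at several loci, 3 were expressed, and their summed level was 81.3 CPM in the first library and 125.8 CPM in the second. Mir9-3 was the highest at 80.1 ± 31.4 CPM, with 57.9 CPM in replicate 1 and 102.2 CPM in replicate 2, while Mir124a-2 and Mir124a-3 had 1 to 2 counts in each library. The neuron list was expressed in all 12 genes and summed to 75951 ± 11174 CPM, led by Mir132 (38067 ± 6199 CPM) and Mir128-1 (17218 ± 4441 CPM). Of its genes, 5 of 12 were higher in replicate 2. The list's median log2 ratio was -0.10, beside a median of -0.01 over all expressed genes. Markers checked for the tissue label showed 4 of 5 neuron genes expressed, among them Mir137 (6618 ± 2001 CPM) and Mir138-1, while Mir124a-1 (21 and 6 counts) missed the threshold. Both oligodendrocyte genes were expressed (sum 3904 ± 58.7 CPM). The liver marker Mir122 stood at 57.3 ± 3.90 CPM, and of the striated muscle markers 3 of 4 had 0 counts in both libraries. The fourth, Mir206, had 94 counts in replicate 1 and 292 in replicate 2. The 3 genes with 0 counts, Mir1a-1, Mir1a-2 and Mir133a-1, are numbered copies, and reads with several places in the genome lie outside the gene counts. Their 0 is therefore no measure of muscle tissue. The sums of other classes in replicate 1 and replicate 2 were 21256 and 10411 CPM for the endothelial Mir126a, 1368 and 1303 CPM for 3 microglia and leukocyte genes, and 79.2 and 52.7 CPM for 2 red cell genes. Most of the microglia and leukocyte sum was Mir150 (1286 and 1154 CPM, log2 ratio 0.01). The other members of that list were higher in replicate 2, as Mir7b was, with 52.3 and 98.7 CPM for Mir142 (log2 ratio 1.08) and 29.6 and 50.0 CPM for Mir155 (0.91). Genes of other lists were also higher in replicate 2, such as Mir9-3 (log2 ratio 0.98) and the neuron gene Mir137 (0.79), so the direction was not particular to microglia. Others were lower, such as Mir126a (-0.87), and 5 of 12 genes of the neuron list were higher. The part of any of these cell types in the Mir7b difference was not tested.

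The letters that pair with the miR-7 5p seed, GTCTTCC, were looked for in the GENCODE M21 transcripts, on the transcript strand, to show the circuit's partners, whose own levels these libraries do not measure. The site occurred in 13.8% of 141767 transcripts. The transcript with the most sites belonged to C230004F18Rik on chromosome X, which RefSeq lists as Cdr1os with the synonym Cdr1as: 125 sites in 19658 nucleotides, 35 of them followed by A (GTCTTCCA). Of the 11 annotated transcripts of C230004F18Rik, 5 held a site. The number and length given are those of a linear transcript, and the circular form was not scanned apart. The most in a transcript of any other gene was 11, in Ttn, Hrnr and D10Wsu102e.

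Cyrano, listed as 1700020I14Rik on chromosome 2, had 2 sites in its transcript of 8300 nucleotides, both followed by A. The second, at bases 2930 to 2959 of that transcript, is shown because the pairing reaches past the seed. The capitals mark the block complementary to bases 11 to 24 of miR-7b-5p and, after 4 further letters, the seed site.
Cyrano site: taagAACAACAAAATCACcaatGTCTTCCa
The block covers 14 bases of miR-7b-5p and 13 of miR-7a-5p, which ends 1 base earlier. It lies beyond position 10, the single base at which the mature 5p arms differ. At the first site, bases 740 to 769, the longest such block was 3 bases. A match of letters is a description of sequence, and no level of a target was measured here.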

How the data were processed

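MicroRNA sequencing of 2 libraries was analysed from the deposited tables of read counts per miRNA gene, which the authors did not normalize. Per the file headers in the deposited descriptions, build mm10 and GENCODE M21 were used. The aligner, the counter and their settings were not given in the sources used here. A table holds a count column without strand and 1 for each strand, and the stranded column with the larger total was taken as sense. Lines that name no gene (65.2% and 65.1% of reads) stayed out of totals. CPM is the sense count per 1000000 sense counts of genes. Symbols and positions came from GENCODE M21 and sequences from RefSeq (GRCm38.p6). Reads that carry CAST variants may have been lost in placement, which was not tested.

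The log2 ratio adds 0.5 to each count and uses TMM factors (edgeR 4.0.16) from genes with at least 20 counts over both libraries. DESeq2 1.42.0 size factors were an alternative. No test between groups was made, as there is 1 group. Named genes were the members, genes that share a mature seed with them (none found), Mir671, the 3 genes nearest each member in level, and at most 3 genes of each list. The members and lists were chosen with earlier results of these data known.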

Additional observations from a re-analysis of the deposited data

Results flagged for a closer look

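Reads placed at several positions of the genome lie outside the gene counts used here and stood above the limit of 3 counts, at 6203588 in replicate 1 (41.8% of all reads) and 5928954 in replicate 2 (46.4%). These are 1016 and 643.0 times the sense counts of the miR-7 family. The deposited tables do not assign them to genes, and their content in miR-7a-5p, which is identical at Mir7-1 and Mir7-2, was not tested.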

How the results depend on the processing

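Of 46 alternatives, 41 were labelled the same as the main value. For a level this meant within 1 SD, and for a log2 ratio within its counting interval. Numbers of genes or pairs were judged by a fold limit, which involves no error. With 2 libraries, a level without 1 replicate always lies within 1 SD of the mean, so those alternatives are no check. With all reads as denominator the mean levels fell to 532.0 CPM for Mir7b, 18.6 CPM for Mir7-2 and 15.7 CPM for Mir7-1, by construction, and the order was kept. The log2 ratio of Mir7b was 0.86 on raw totals and 1.26 with upper-quartile scaling, against 1.02. Without 1 replicate the level ranged from 1086 to 1967 CPM for Mir7b, from 46.0 to 60.8 CPM for Mir7-2 and from 35.6 to 54.5 CPM for Mir7-1, and the number of genes expressed was 3 in each case. That number could not fall without 1 replicate or with a lower threshold, since all 3 genes passed in both libraries. Those alternatives are no check either. Mir7-1 and Mir7-2 change order with the library left out. Of expressed genes over 2-fold apart, the share higher in replicate 2 was 35.7% with TMM, 21.6% on raw totals and 60.0% with upper-quartile scaling. No paired analysis was possible because the 2 libraries form 1 group. At the counts of Mir7-1 and Mir7-2 the counting intervals of a level in 1 library reach up to 15.5% to a side. A difference between the libraries carries the error of both, so the smallest detectable difference is larger than that and was not computed.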
